A study of Rattus norvegicus with 10 samples.

Results

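The beta-1,4-galactosyltransferases are the 7 genes B4galt1 to B4galt7, matched by symbol in the deposited read-count table of rat hippocampus, where they are 7 of 13686 gene symbols, each with 1 line. The family was selected on the measured values of B4galt3, which was higher in every library of BT-11-treated rats than in any untreated one. The contrast of B4galt3 is therefore given as a description, with no test, and tests are given for the other 6 members only. All 7 members passed the filter on low counts, which kept 11771 genes.

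The libraries came from the left hippocampus of male rats of the TgF-344AD line (genotype Tg-AD), at 11 months of age. The untreated group was 5 such rats on plain rodent chow, and the BT-11 group was 5 such rats whose chow held BT-11 for 6 months, beginning at an age of 5 months. Rats of both groups carry the transgenes of the line, which the mouse prion promoter is known to drive, so the comparison is between transgenic animals. Ketamine and xylazine before perfusion are listed for all of them. BT-11 is a small molecule that is taken by mouth and known to bind the protein LANCL2. The comparison addresses which genes of the hippocampus differ between treated and untreated rats.

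Beta-1,4-galactosyltransferases are membrane enzymes of the Golgi that take galactose from UDP-galactose and join it to a sugar acceptor. B4GALT1 to B4GALT4 act mainly on N-acetylglucosamine ends and make N-acetyllactosamine, the unit on which sialic acid, fucose, keratan sulfate and the HNK-1 epitope of nervous tissue are built. B4GALT5 and B4GALT6 make lactosylceramide, the precursor of the brain's gangliosides, and B4GALT7 adds the first galactose of the linker that anchors chondroitin and heparan sulfate chains to proteoglycans.

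RefSeq promoter windows (build GRCr8, 300 bases, 250 of them before the annotated start) were found for 6 of the 7 members, the exception being B4galt6. The first 270 bases, 20 of them past the start, are shown for B4galt3, the member with the largest difference between groups, for B4galt7, the member with the next largest, and for B4galt1, the member with the lowest level. Capitals mark 3 motifs searched on both strands, none of which overlap another here: the cAMP response element (TGACGTCA, the same on both strands), the GC box (GGGCGG or CCGCCC) and the core of the YY1 motif (AAGATGGCG or CGCCATCTT).

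B4galt3 (chr13:86223647-86223916, plus strand): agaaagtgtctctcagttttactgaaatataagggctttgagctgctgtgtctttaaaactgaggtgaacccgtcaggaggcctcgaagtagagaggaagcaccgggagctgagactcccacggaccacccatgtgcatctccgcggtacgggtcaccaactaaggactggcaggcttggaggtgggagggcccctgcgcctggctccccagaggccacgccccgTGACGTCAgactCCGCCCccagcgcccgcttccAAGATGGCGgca
B4galt7 (chr17:9032667-9032936, minus strand): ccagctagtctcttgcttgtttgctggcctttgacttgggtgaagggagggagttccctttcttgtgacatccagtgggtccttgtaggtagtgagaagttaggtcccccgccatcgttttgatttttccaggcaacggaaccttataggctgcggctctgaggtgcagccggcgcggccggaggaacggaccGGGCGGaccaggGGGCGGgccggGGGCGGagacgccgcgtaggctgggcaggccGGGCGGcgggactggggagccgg
B4galt1 (chr5:60778426-60778695, minus strand): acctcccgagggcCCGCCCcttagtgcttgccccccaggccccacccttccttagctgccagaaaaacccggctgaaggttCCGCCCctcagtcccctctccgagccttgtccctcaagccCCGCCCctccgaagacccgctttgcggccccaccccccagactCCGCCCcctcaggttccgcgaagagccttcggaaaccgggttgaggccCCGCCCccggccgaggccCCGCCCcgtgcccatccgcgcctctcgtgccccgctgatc

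The B4galt3 window held 1 full cAMP response element at bases 226 to 233, which begins 25 bases before the annotated start, 1 GC box at bases 238 to 243 and 1 YY1 core at bases 259 to 267. Of 33469 RefSeq promoter windows of the same length, 1.83% held the cAMP response element, 33.1% a GC box and 1.73% the YY1 core. Neither the cAMP response element nor the YY1 core occurred in the other 5 windows. GC boxes numbered 6 in the B4galt1 window, 4 in that of B4galt7 and 3 in that of B4galt4, and those of B4galt2 and B4galt5 had none of the 3 motifs. The motifs were chosen with the B4galt3 window in view, and a match describes letters, not binding. GC content was 61.7% in the B4galt3 window, 71.7% in that of B4galt1 and 49.0% in that of B4galt5, against a median of 51.7% over all windows.

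The libraries held 8984439 to 11301545 summed counts. Marker genes of hippocampal fields (7 of 7 tested) summed to 825 to 1154 CPM in untreated and 763 to 1393 CPM in BT-11 libraries, where CPM is the count of a gene scaled to a common total per library, and 5 of the 7 were higher with BT-11. Wfs1, a marker of the CA1 field, was at 91.9 to 284 CPM in untreated and 201 to 459 CPM in BT-11 libraries, with a log2 fold change of 1.25 (edgeR, adjusted p = 0.402). Prox1, a marker of the dentate gyrus, was at 21.6 to 82.1 and 53.5 to 92.3 CPM, with a log2 fold change of 0.56 (edgeR, adjusted p = 0.611). The 2 lower field markers were Grik4, at -0.25, and Neurod6, at -0.12 (edgeR, adjusted p = 0.635 and 0.889). Fibcd1 was at 0.16 (edgeR, adjusted p = 0.857), with 142 to 201 and 93.9 to 288 CPM. Transcripts of the choroid plexus, which lies beside the hippocampus, were high in untreated replicates 2 and 5. The 10 markers, none of them at 0 in every library, summed to 9.52 to 3805 CPM in untreated and 8.32 to 30.6 CPM in BT-11 libraries, and all 5 that were tested were lower with BT-11. The 8 meningeal markers summed to 68.5 to 452 and 55.8 to 75.2 CPM, with 6 of 8 lower. Neuronal markers summed to 7286 to 8895 and 5979 to 7604 CPM, with 3 of 8 higher and 5 lower. Among the higher ones Rbfox3, which encodes the nuclear protein NeuN, was at 112 to 135 CPM in untreated and 143 to 160 CPM in BT-11 libraries, without overlap, as for B4galt3 (log2 fold change 0.24, edgeR, adjusted p = 0.448). Gad2, of inhibitory neurons, was at 27.0 to 67.1 and 39.4 to 112 CPM (log2 fold change 0.74, edgeR, adjusted p = 0.511). The 5 lower neuronal markers were Snap25 at -0.25, Tubb3 at -0.23, Eno2 at -0.17, Slc17a7 at -0.12 and Syt1 at -0.06 (log2 fold change). Their adjusted p was 0.475 or more in edgeR. The single field and neuronal markers given here were named after their values were seen. Astrocyte markers summed to 4232 to 5432 and 4632 to 4995 CPM, with 7 of 8 lower, and microglial markers to 350 to 446 and 370 to 435 CPM. In both groups replicates 4 and 5 were the most alike pair by the chi-square of their counts. In whole tissue, fewer cells of a type and less RNA per cell cannot be told apart for any gene named here.

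B4galt3, an N-acetyllactosamine-forming member, was higher in CPM with BT-11. Positions of gene models are those the authors list in build rn6, and that of B4galt3 is on chromosome 13, 89643880 to 89649869, plus strand, with 1970 bases. In untreated replicates 1 to 5 its level was 34.6, 39.7, 38.3, 34.9 and 38.2 CPM. In BT-11 replicates 1 to 5 it was 46.1, 49.9, 50.1, 45.6 and 46.4 CPM. The groups did not overlap, and 5.88 CPM lay between the highest untreated library and the lowest BT-11 one. The means were 37.2 ± 2.27 and 47.6 ± 2.18 CPM (SD, n = 5 each), a ratio of 1.28, and the fitted log2 fold change was 0.35 ± 0.0644 (SE). These values rest on 314 to 432 counts per untreated library and 456 to 519 per BT-11 library. Within replicate numbers 1 to 3 the log2 fold change was 0.37 ± 0.0882, and within numbers 4 and 5 it was 0.33 ± 0.0917 (SE). Without untreated replicates 2 and 5, which were high in choroid plexus transcripts, it was 0.39 ± 0.0789 (SE). All these values of B4galt3 use the libraries by which it was chosen. A positive value in each subset was therefore fixed by the choice, and its size follows in part from it. The subsets are no replication, and their SEs carry no test. The part of choroid plexus, hippocampal field, neuronal and glial transcripts in the difference was not tested.

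B4galt3 was 1 of 68 genes with every BT-11 library above every untreated one, 0.578% of the 11771 tested, and no member was among the 64 genes (0.544%) with every BT-11 library below. Because the family was chosen for the first of these facts, nothing is read from either count. The member nearest to meeting it was B4galt7, whose lowest BT-11 library (17.3 CPM) lay below its highest untreated one (18.6 CPM).

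**Figure D1:**
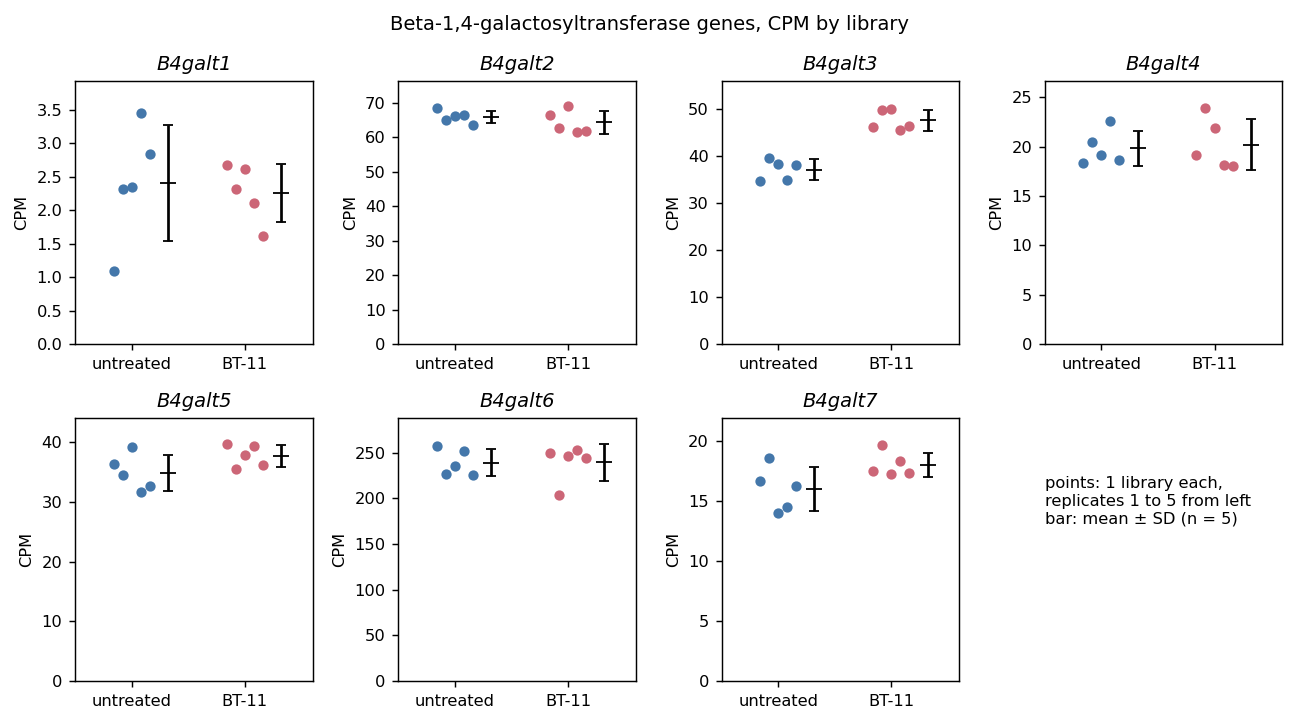
CPM (y axis, from 0) of the 7 genes in each of the 5 untreated (blue) and 5 BT-11 (red) libraries, replicates 1 to 5 from left to right, with mean ± SD beside them. B4galt3 is the 1 gene whose groups do not overlap, at 34.6 to 39.7 and 45.6 to 50.1 CPM, and B4galt1 has the widest relative spread.

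None of the other 6 members passed edgeR's quasi-likelihood test, and none had an unadjusted p under 0.05. In the whole table edgeR called 0 of 11771 genes (0%) at an adjusted p of 0.05, while 1070 (9.09%) had an unadjusted p under 0.05, and DESeq2 called 36. Without untreated replicate 3 edgeR called 62 genes, and in replicate numbers 4 and 5 alone 479, with none of the 6 members among them. Of all 7 members 4 were higher and 3 lower with BT-11, with a median log2 fold change of 0.01, against -0.01 over all genes tested. Over all genes 5674 were higher and 6097 lower. The 4 include B4galt3, whose direction was fixed by the choice, and B4galt4 and B4galt6 were close to 0, at 0.01 and -0.01. Nothing is therefore read from the split of the members.

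B4galt1, B4galt2 and B4galt4 share the acceptor class of B4galt3. B4galt2, whose loss in mice is known to lower the HNK-1 epitope in brain, is listed on chromosome 5, 136707510 to 136715982, minus strand. It was at 68.4, 64.8, 66.1, 66.4 and 63.6 CPM in untreated replicates 1 to 5. The level was 66.5, 62.7, 68.9, 61.4 and 61.8 CPM in BT-11 replicates 1 to 5. The untreated range lay within the BT-11 range, with a log2 fold change of -0.05 and a 95% interval from -0.18 to 0.09 (edgeR, adjusted p = 0.841). B4galt4 was at 18.3 to 22.6 CPM in untreated libraries and 18.0 to 23.9 CPM in BT-11 libraries, with a log2 fold change of 0.01 (interval -0.20 to 0.23, edgeR, adjusted p = 0.973). The value of B4galt4 is close to 0, and its sign turned on leaving out untreated replicate 5, and likewise replicate 2 or 3 of the BT-11 group. B4galt4, known to act on the sulfated N-acetylglucosamine of keratan sulfate, is listed on chromosome 11, 64558010 to 64583970, minus strand. B4galt1, the enzyme that joins alpha-lactalbumin to make lactose in the mammary gland, was close to the limit of what this depth can measure (chromosome 5, 57121768 to 57168611, minus strand). It had 10 to 32 counts in untreated and 18 to 30 in BT-11 libraries, or 1.09 to 3.45 and 1.61 to 2.68 CPM. The lowest of these, untreated replicate 1, has an exact 95% binomial interval from 0.523 to 2.01 CPM, which covers counting error only. The log2 fold change of B4galt1 was -0.10, with an interval from -0.68 to 0.47, wide enough to hold sizeable differences in either direction (edgeR, adjusted p = 0.925). Its sign turned without untreated replicate 4.

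B4galt5 and B4galt6, the lactosylceramide synthases, also overlapped between groups. B4galt5, listed on the minus strand of chromosome 3 from 164039731 to 164055562, had levels of 36.4, 34.5, 39.2, 31.7 and 32.7 CPM in untreated replicates 1 to 5. In BT-11 replicates 1 to 5 it was at 39.7, 35.6, 37.8, 39.3 and 36.2 CPM. Untreated replicates 1 and 3 lay within the BT-11 range and the other 3 below it. The log2 fold change was 0.10 with an interval from -0.07 to 0.27 (edgeR, adjusted p = 0.724). B4galt6, first purified from rat brain as a lactosylceramide synthase, had the highest counts of the family, 2032 to 2794 per library. It was at 257, 226, 235, 252 and 225 CPM in untreated replicates 1 to 5. The BT-11 values were 249, 204, 246, 253 and 244 CPM, with BT-11 replicate 2 below the other 9 libraries. Both means were 239 CPM, and the interval of the log2 fold change ran from -0.18 to 0.16 (edgeR, adjusted p = 0.973). B4galt6 is counted among the lower members at -0.01, but was at 0.0005 when libraries were scaled by their totals alone and at 0.05 without BT-11 replicate 2. The gene model of B4galt6 (chromosome 18, 15462913 to 15525585, plus strand) lies wholly within the listed span of Mapre2 on the same strand, at a mean of 394 CPM, so that reads of the 2 genes may not have been told apart there. No listed gene overlapped the other 6 members.

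B4galt7, the linker enzyme (chromosome 17, 9550026 to 9558625, minus strand), had the largest log2 fold change of the 6. Its level was 16.7, 18.6, 14.0, 14.5 and 16.3 CPM in untreated replicates 1 to 5. In BT-11 replicates 1 to 5 it was 17.5, 19.7, 17.3, 18.4 and 17.4 CPM. Every BT-11 library was above 4 of the 5 untreated ones, and untreated replicate 2 lay within the BT-11 range. The log2 fold change was 0.16 ± 0.093 (SE), with an interval from -0.04 to 0.36 that includes 0 (edgeR, adjusted p = 0.631). Without untreated replicate 2 the groups of B4galt7 no longer overlapped, and the number of members with every BT-11 library higher was then 2. The share of all genes that separate in this smaller set was not computed, so nothing is read from that number.

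**Figure D2:**
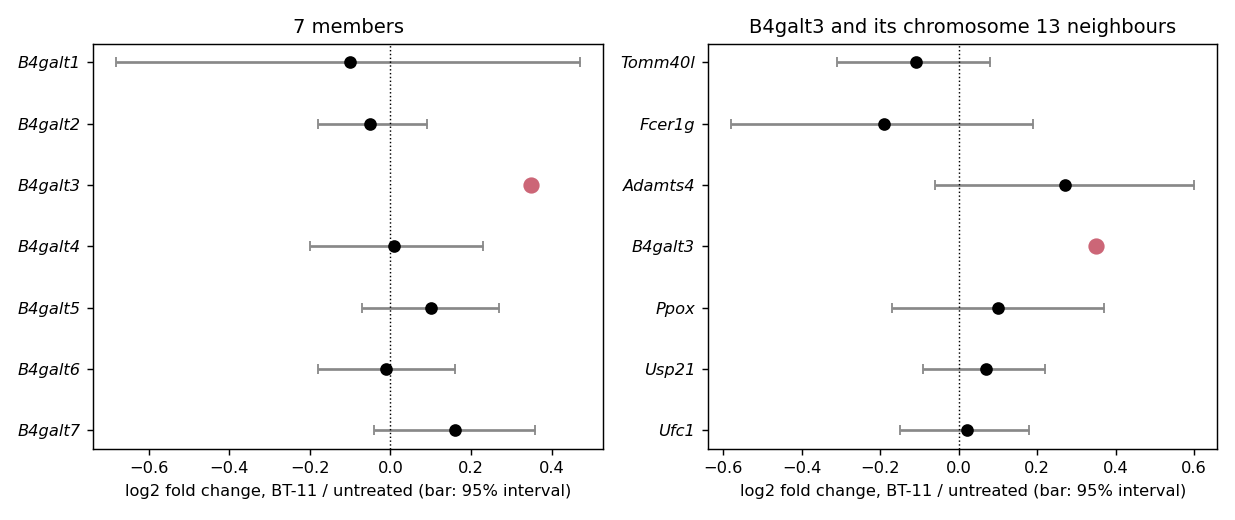
Log2 fold change, BT-11 relative to untreated, with its 95% interval from edgeR except for B4galt3 (x axis), for the 7 members (left) and for B4galt3 (red) with 6 of the 7 other listed genes within 50 kb of it, in chromosome order (right). B4galt3, at 0.35, is shown without an interval because the family was chosen on its values, and the intervals of the other genes shown include 0.

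Per length of gene model, the hippocampus held the most B4galt6 and B4galt2 transcript and the least B4galt1. Over the 10 libraries the level was 41.7 ± 2.9 CPM per kb for B4galt6, 32.2 ± 1.3 for B4galt2, 21.5 ± 3.0 for B4galt3, 19.8 ± 1.52 for B4galt5, 10.9 ± 1.13 for B4galt7, 9.61 ± 1.01 for B4galt4 and 1.02 ± 0.284 for B4galt1 (SD, n = 10). B4galt6 was above B4galt2, B4galt2 above B4galt3, B4galt5 above B4galt7 and B4galt4 above B4galt1 in all 10 libraries. B4galt3 was above B4galt5 in 8 of the 10 libraries and B4galt7 above B4galt4 in 8, and the ranges of both pairs overlapped. In untreated libraries alone B4galt3 and B4galt5 did not differ beyond their spread, at 18.9 ± 1.15 and 19.1 ± 1.65 CPM per kb, and in BT-11 libraries they were at 24.2 ± 1.11 and 20.6 ± 0.995 (SD, n = 5). Among the 12887 genes with 1 line in the table, the mean level per kb of B4galt6 was at percentile 84.6, that of B4galt3 at 71.5 and that of B4galt1 at 18.7. These levels depend on the listed model lengths, which run from 1564 bases for B4galt7 to 5728 for B4galt6.

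**Figure D3:**
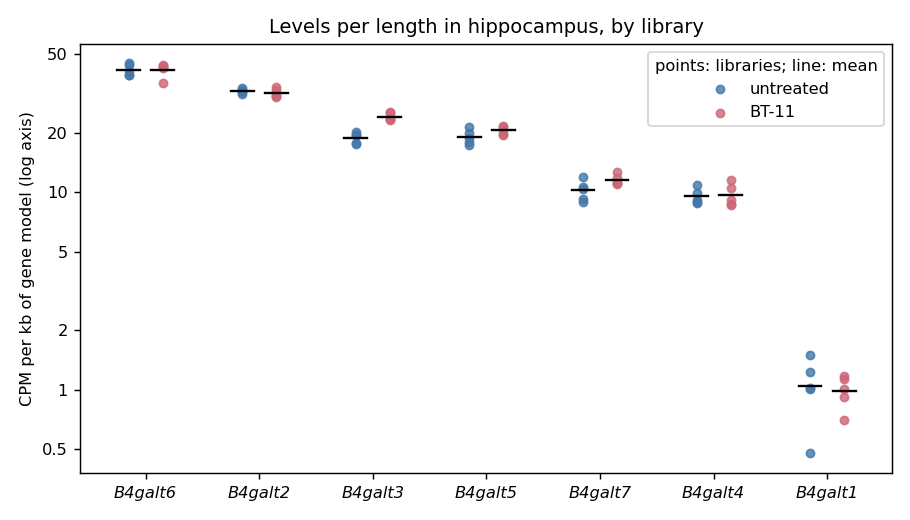
CPM per kb of listed gene model (y axis, log scale) of the 7 genes, ordered by their mean over the 10 libraries, with 1 point per library (untreated blue, BT-11 red) and a line at each group mean. B4galt6 is highest at 35.6 to 44.9 and B4galt1 lowest at 0.476 to 1.51 CPM per kb.

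Summed over the family, the level was 133 ± 2.77 CPM per kb in untreated and 141 ± 4.03 in BT-11 libraries (SD, n = 5 each), and without B4galt3 it was 114 ± 3.49 and 116 ± 4.03. The share of the family's transcripts held by B4galt3 was 12.9% to 15.1% in untreated and 16.4% to 18.5% in BT-11 libraries. That of B4galt2 was 24.1% to 24.9% and 21.6% to 23.4%, and that of B4galt6 29.6% to 33.0% and 26.1% to 31.4%. Shares add to a fixed whole, so a larger share of B4galt3 lowers those of the other members, and these values carry the choice of B4galt3 with them.

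The spread of B4galt3 within a group is in part fixed by its choice, since groups that do not overlap tend to be narrow. Its coefficient of variation was 6.12% in untreated and 4.58% in BT-11 libraries, where counting alone gives 5.30% and 4.47%. B4galt2 was likewise at 2.71% and 5.11%, against 3.98% and 3.84%. B4galt6, with many more counts, varied by 6.22% and 8.37%, where counting gives 2.09% and 1.99%. B4galt1 varied by 36.1% and 19.1%, with 20.8% and 20.5% from counting.

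Correlations of the members among themselves had both signs across animals. With the group means removed, Pearson's r over the 10 libraries ran from -0.54 (B4galt3 with B4galt6) to 0.58 (B4galt2 with B4galt6) over the 21 pairs of members, and was positive for 11 of them. B4galt3 had r = 0.31 with B4galt4, 0.30 with B4galt7, 0.11 with B4galt2 and 0.04 with B4galt5. These values describe 10 libraries that also share depth and tissue makeup, and carry no test. A spread near counting error, as given above for B4galt3 and B4galt2, also draws r toward 0. Whether the members move together can therefore not be judged from these values.

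The genes beside B4galt3 on chromosome 13 overlapped between the groups, as nearly all genes do. Of all genes tested, 0.578% separated with BT-11 higher and 0.544% with BT-11 lower, so nothing is read from the overlap of these few. The table lists 7 other genes within 50 kb, among them Ppox, a heme synthesis enzyme whose model ends 225 bases from that of B4galt3 on the opposite strand, and Usp21, a deubiquitinase. Ppox was at 9.38, 9.03, 7.17, 7.46 and 7.26 CPM in untreated replicates 1 to 5. Its BT-11 values were 8.83, 9.63, 7.45, 8.10 and 9.56 CPM. The groups overlapped, and the log2 fold change was 0.10 ± 0.125 (SE, edgeR, adjusted p = 0.835). Adamts4, an aggrecan-cleaving protease upstream on the same strand, had the largest value of the 7, 0.27 ± 0.154 (adjusted p = 0.626 in edgeR), at 19.5 to 32.2 CPM in untreated and 21.9 to 36.6 CPM in BT-11 libraries. Usp21 and Ufc1, a UFM1-conjugating enzyme, were at 0.07 and 0.02. Tomm40l, a mitochondrial import protein, and Fcer1g, an immune receptor chain of microglia, were at -0.11 and -0.19. None of the 7 had an unadjusted p under 0.05 in edgeR, where 9.09% of all genes tested did. The sources used here do not give the strand setting of the counting, so reads of the closely facing ends of B4galt3 and Ppox may not have been told apart.

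The 5 genes whose log2 CPM followed that of B4galt3 most closely over the 10 libraries, among 11743 with a mean of at least 1 CPM, were Csnk1g1 (r = 0.946), the kinase gene Map3k3 (0.924), Nicn1 (0.903), Tstd2 (0.900) and Dclk3 (0.889). Csnk1g1, a casein kinase, was at 3.49 to 4.51 CPM in untreated libraries and 5.20 to 6.62 CPM in BT-11 libraries. Every BT-11 library was above every untreated one for all 5, so this likeness restates the difference between groups by which the family was chosen. With the group means removed, 4 of the 5 most alike were Dcaf11, a ubiquitin ligase receptor (r = 0.968), the atypical kinase gene Mapk4 (0.913), the splicing gene Srek1 (0.910), and the transcription elongation gene Supt5h (0.897). Dcaf11 was at 94.5, 104, 101, 96.8 and 103 CPM in untreated replicates 1 to 5. In BT-11 replicates 1 to 5 it was at 96.5, 102, 102, 96.8 and 98.6 CPM. The groups of these 4 genes overlapped, with log2 fold changes from -0.02 to 0.08. The largest of 11743 correlations over 10 libraries is high by selection, and no test is given.

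Around the family, 97 genes of galactose supply and of glycan synthesis, capping and removal were listed, and 85 were tested, some of them in more than 1 list. Of these 38 were higher and 47 lower with BT-11, with a median log2 fold change of -0.02 against -0.01 over all genes. None passed edgeR's test over all genes, and 7 (2 higher, 5 lower) had an unadjusted p under 0.05, which is 8.24% of them against 9.09% of all genes. None of the 85 separated the groups in either direction. Of all genes tested 0.578% did so with BT-11 higher and 0.544% with BT-11 lower. With shares this small, nothing is read from the absence of such genes among the 85.

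Acceptor-side enzymes of N-glycans went both ways. Of 13 tested genes 7 were higher and 6 lower, with a median of 0.03. Man1a1, a Golgi mannosidase that trims N-glycans early, had a log2 fold change of 0.44, while Man2a1, which trims them later, and Man1c1, another early mannosidase, had -0.35 and -0.23. Among 8 sialyltransferases, which cap galactose, 4 were higher and 4 lower. St6gal1, which adds sialic acid to the N-acetyllactosamine that B4GALT enzymes make, had the smallest p of all 85 genes, with a log2 fold change of -0.55 ± 0.148 (SE, edgeR, adjusted p = 0.412). It was at 26.7, 34.6, 20.5, 36.3 and 35.3 CPM in untreated replicates 1 to 5. The BT-11 values were 22.9, 20.1, 17.5, 24.3 and 20.9 CPM, and untreated replicate 3 lay within them. St3gal2 and St6gal2 had 0.09 and 0.31.

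The list of poly-N-acetyllactosamine, keratan sulfate and HNK-1 enzymes had 4 higher and 5 lower of 9 tested. B3gat1, which makes the HNK-1 epitope, was at 0.26 and Gcnt2, which branches N-acetyllactosamine chains, at -0.33. B4gat1, also placed in this list, was at 0.06. Of 5 tested linker enzymes that work beside B4galt7, 3 were higher and 2 lower, among them Pxylp1 at 0.18, Fam20b, the xylose kinase, at -0.11 and B3gat3 at -0.04. Of 10 tested genes of glycosphingolipid synthesis, 7 were higher and 3 lower, with a median of 0.06. Not all of them work on the lactosylceramide route of B4galt5 and B4galt6. Ugt8, which makes galactosylceramide for myelin, was at 0.24, B3galt4 at 0.30 and St8sia3 at 0.29. The summed level of 8 oligodendrocyte markers ran from 7866 to 15951 CPM in untreated and from 8323 to 14979 in BT-11 libraries, with 8 of 8 higher at a median log2 fold change of 0.18, and its part in the value of Ugt8 was not tested.

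On the donor side, 7 of 9 genes of UDP-galactose supply were lower, with a median of -0.09. Galk2, known as an N-acetylgalactosamine kinase, had -0.22 and Ugp2, which makes UDP-glucose, -0.12. Slc35a2, which carries UDP-galactose into the Golgi, was not among the lower ones, at 0.07. Of 12 other galactosyltransferases and beta-1,4-N-acetylgalactosaminyltransferases 7 were higher and 5 lower, with B4galnt4 at -0.15 and the collagen galactosyltransferase Colgalt1 at 0.12. Among 10 genes of Golgi manganese and the COG tethering complex 5 were higher and 5 lower, with Cog1 at 0.12, Cog3 at 0.15 and Golph3 at -0.08. Of 14 genes of galactose removal and galectins 4 were higher and 10 lower, with Lgals3bp, a galectin ligand, at -0.28, Lgals1 at -0.15 and Lgals8 at -0.08. All of the genes named for these lists had adjusted p of 0.412 or more in edgeR.

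**Figure D4:**
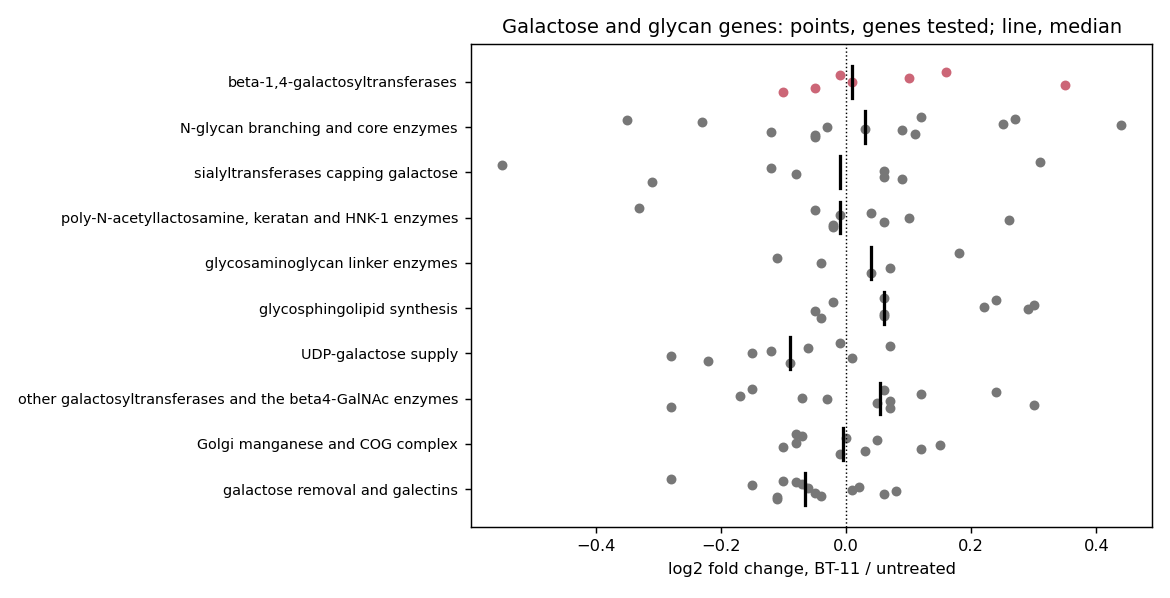
Log2 fold change, BT-11 relative to untreated (x axis), of the 7 members (red) and of the tested genes of 9 lists (grey), with a line at each median. B4galt3 is the member farthest right at 0.35, St6gal1 the gene farthest left at -0.55, and the medians lie between -0.09 and 0.06.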

How the data were processed

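RNA of the left hippocampus was sequenced in 10 libraries as single-end reads with a strand-specific kit, per the labels' protocols. The authors deposited estimated counts per gene model (83.2% whole numbers) and CPM, which equal those counts scaled to the column total plus 1e-04. Per the submitters' processing notes the build was rn6 and the tools were STAR 2.7.9a, bcl2fastq 2.19.1.403, DESeq2 and Partek. Which program counted, and with which strand setting, is not given in the sources used here.

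Estimated counts were summed per symbol and rounded. CPM per library use the column total of the count table, and CPM per kb divide them by the listed model length. Groups were compared across all genes with edgeR 4.0.16 in R 4.3.3 (robust quasi-likelihood, TMM, default filter by group). Benjamini-Hochberg adjustment was over the 11771 genes tested. The step was checked on simulated counts with changes larger than that of any member. The check therefore does not give its power for differences as small as those of the members. Correlations use log2 CPM with a prior count of 2. Alternatives used DESeq2 1.42.0, limma 3.58.1, other normalizations, no filter, covariates and omitted libraries. Libraries of a group differed by at least 4.38 in chi-square per degree of freedom, so none was a repeat deposit. Intervals of single libraries cover counting error only, and p-values measure the spread between these libraries.

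The members, lists and alternatives were chosen with earlier results of these data known. Named genes were the members, up to 3 genes per list with the smallest p at a mean of at least 1 CPM, all listed genes within 50 kb of B4galt3, and the 5 genes most correlated with it, with and without group means. Some of these, and some background on the line, are not reported here.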

Additional observations from a re-analysis of the deposited data

Results flagged for a closer look

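In groups of 5 libraries, a library was singled out when its gap to the nearest other library exceeded 0.71 of the group's range, Dixon's 95% limit. This was tested in 104 groups (52 genes or marker sums in each of the 2 groups) and met in 7, where chance gives about 1 in 20.

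Among the members it was met by B4galt6 in BT-11 replicate 2, at 204 CPM where the other BT-11 libraries were at 244 to 253 CPM. St3gal2 was low in the same library, at 121 CPM against 145 to 154 CPM. In BT-11 replicate 5 B4gat1 was high, at 133 CPM, with the rest of its group at 124 to 126 CPM. Ufc1 was at 63.1 CPM in untreated replicate 5 against 77.4 to 81.8 CPM. Dclk3 was at 12.1 CPM in untreated replicate 3 against 8.26 to 9.05 CPM. Choroid plexus markers summed to 3805 CPM in untreated replicate 2 against 9.52 to 732 CPM, and meningeal markers to 452 CPM in the same library against 68.5 to 167 CPM.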

How the results depend on the processing

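The log2 fold change of B4galt3 kept its direction in all 24 alternatives, from 0.32 to 0.39, a direction that the choice of the gene fixes. B4galt2, B4galt5 and B4galt7 also kept their direction in all 24, and the count of other members past the test was 0 in each. The alternatives reuse the same libraries, and the main intervals of B4galt2, B4galt5 and B4galt7 include 0, so their directions are not settled either. Directions of B4galt1, B4galt4 and B4galt6 turned in some alternatives. B4galt1 turned to 0.39 in replicate numbers 1 to 3, against -0.75 in numbers 4 and 5, and ranged from -0.27 to 0.05 with 1 library left out. B4galt4 turned to -0.0039 without untreated replicates 2 and 5 and to -0.18 in numbers 4 and 5, with -0.04 to 0.06 when 1 library was left out. B4galt6 turned to 0.0005 with library totals only and to 0.06 in numbers 4 and 5, with -0.03 to 0.05 when 1 library was left out. The cause was not tested.

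Genes past the test numbered 0 in edgeR, 36 in DESeq2, 0 to 62 with 1 library left out (62 without untreated replicate 3) and 479 in numbers 4 and 5. Members with every BT-11 library higher numbered 1, then 2 without untreated replicates 2 and 5, and 1 to 2 with 1 library left out. In numbers 4 and 5, with 2 libraries per group, 3 were higher (B4galt3, B4galt5 and B4galt7) and 3 lower (B4galt1, B4galt2 and B4galt4). Groups of fewer libraries separate more easily, and the share of all genes that did so was not computed. Nothing is therefore read from these counts. Same-numbered libraries of the 2 groups correlated at 0.04 to 0.22 in their deviations, with 4 of 5 pairs over 0.1, and 4 of 10 libraries correlated best with their own number. Pairing was taken only where all pairs were over 0.1, so the block is an alternative here. With the replicate block 0 genes passed in edgeR and 1320 had an unadjusted p under 0.05, against 1070 without it, and B4galt3 had 0.35. Depth limits B4galt1, with 10 to 32 counts per library.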
